A study of Mus musculus with 2 samples.

Results

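The genes described here are those of potassium channels, taken by symbol: every mouse gene in the expression tables whose symbol starts with Kcn, except Kcnj8. They numbered 61 of the 16174 genes listed in at least 1 of the 2 libraries, and 24 of the 61 reached 0.5 FPKM (fragments scaled to transcript length and to library size) in at least 1 library. The prefix also takes in subunits that form no pore and 1 noncoding RNA gene, Kcnq1ot1. RNA was sequenced from brown adipose tissue, the fat that makes heat, of female C57BL/6 mice fed chow until 45 weeks of age. The control library came from mice with the genotype D3Bfl/fl, and the knockout library from mice with the genotype D3Bfl/fl-UCP1-Cre+/-. Both groups carry the floxed D3B alleles, and the Cre recombinase in the second is driven by Ucp1, a gene active in brown adipocytes, so other cells of the tissue keep the allele. D3B is taken to be Dnmt3b, which encodes an enzyme that methylates DNA. There was 1 library per genotype, with no replicate check of any difference and no p-value.

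The control library held 9666528 expected counts and the knockout library 10068359. Each library had its own sequencer lane, and the control label names no Cre, so lane, Cre and loss of D3B cannot be told apart. Dnmt3b was at 0.39 FPKM in control and 0.18 FPKM in knockout tissue, on 15 and 7 counts, a ratio of 0.462 with a 95% counting interval of 0.159 to 1.2. A lower level of the targeted transcript was not detectable at this depth, and the gene-level value also covers exons outside the deleted part. Ucp1, the uncoupling protein gene that defines brown adipocytes, was at 4987 FPKM and 4271 FPKM, so the tissue label holds in both libraries. In bulk tissue, fewer cells of a type and less RNA per cell cannot be told apart.

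Potassium channels let potassium ions leave the cell and so set the resting membrane potential or end an electrical signal. Voltage-gated channels open on depolarization, inward rectifiers pass current best near rest, two-pore channels leak at rest, and calcium-activated channels open when calcium inside the cell rises. Brown adipocytes depolarize when noradrenaline arrives, and the two-pore channel gene Kcnk3 is known as strongly expressed in them.

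What the pore-forming members share is the signature of the selectivity filter, the loop that admits potassium and holds back sodium. A search of the coding sequences for its 5 codons (threonine or serine, then isoleucine, valine or leucine, glycine, tyrosine, phenylalanine or leucine, and glycine) found it in 19 of the 24 genes. The 4 two-pore genes had 2 matches each and the other 15 had 1 each. The 5 genes with no match were Kcnab2, Kcnab3, Kcne1l and Kcne4, which encode accessory subunits, and the noncoding Kcnq1ot1. Stretches are shown for the most abundant member, the voltage-gated Kcna5, the silent subunit gene Kcns3 and 3 genes whose levels differed between the libraries. The search required the signature, so the likeness of these stretches is partly fixed in advance. Sequences and positions are from GENCODE M21 on GRCm38, which is not the mm9 build of the expression tables. Each stretch has 45 bases of coding exon, with the 5 signature codons in capitals.
Kcnk3 first pore: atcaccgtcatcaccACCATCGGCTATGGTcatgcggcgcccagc
Kcnk3 second pore: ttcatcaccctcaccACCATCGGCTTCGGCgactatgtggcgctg
Kcns3: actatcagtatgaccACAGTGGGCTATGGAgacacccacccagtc
Kcna5: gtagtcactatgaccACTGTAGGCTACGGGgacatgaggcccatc
Kcnj11: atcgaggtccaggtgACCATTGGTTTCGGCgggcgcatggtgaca
Kcnj15: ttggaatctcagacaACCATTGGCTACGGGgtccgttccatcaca
Kcnn4: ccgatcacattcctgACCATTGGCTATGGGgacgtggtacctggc
The first pore of Kcnk3 spans the junction of exons 1 and 2, on the plus strand between the outer bases of chr5:30588578-30621913, and its second pore lies in exon 2 at chr5:30622187-30622231. The Kcns3 stretch is in exon 3 of 3, minus strand, chr12:11091560-11091604. That of Kcna5 is in its single exon, minus strand, chr6:126533730-126533774, and that of Kcnj11 is in a single exon too, minus strand, chr7:46099481-46099525. Those of Kcnj15 and Kcnn4 are on the plus strand, in exon 4 of 4 at chr16:95295965-95296009 and in exon 4 of 9 at chr7:24379183-24379227. Of the 15 signature bases of the first Kcnk3 pore, the other 22 matches share between 10 and 14, part of which the search requires. The expected counts of 23 of the 24 genes were nevertheless whole to within 0.05 in both libraries, as they are when no reads are divided with another gene. The exception was Kcnq1ot1.

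A single gene made up most of the potassium channel transcript level. Kcnk3, whose product is an acid-sensitive leak channel, was at 89.0 FPKM in control and 70.8 FPKM in knockout tissue. It ranked 948th and 1130th by FPKM among all listed genes, while the next member ranked 6563rd and 6143rd. That member was Kcns3 in the control, at 6.81 FPKM, and Kcna5 in the knockout, at 7.65 FPKM, so Kcnk3 stood 13.1-fold and 9.25-fold above the second gene. Of the summed FPKM of all 61 members, 130.16 in the control and 118.91 in the knockout library, Kcnk3 held 68.3% and 59.5%.

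**Figure D1:**
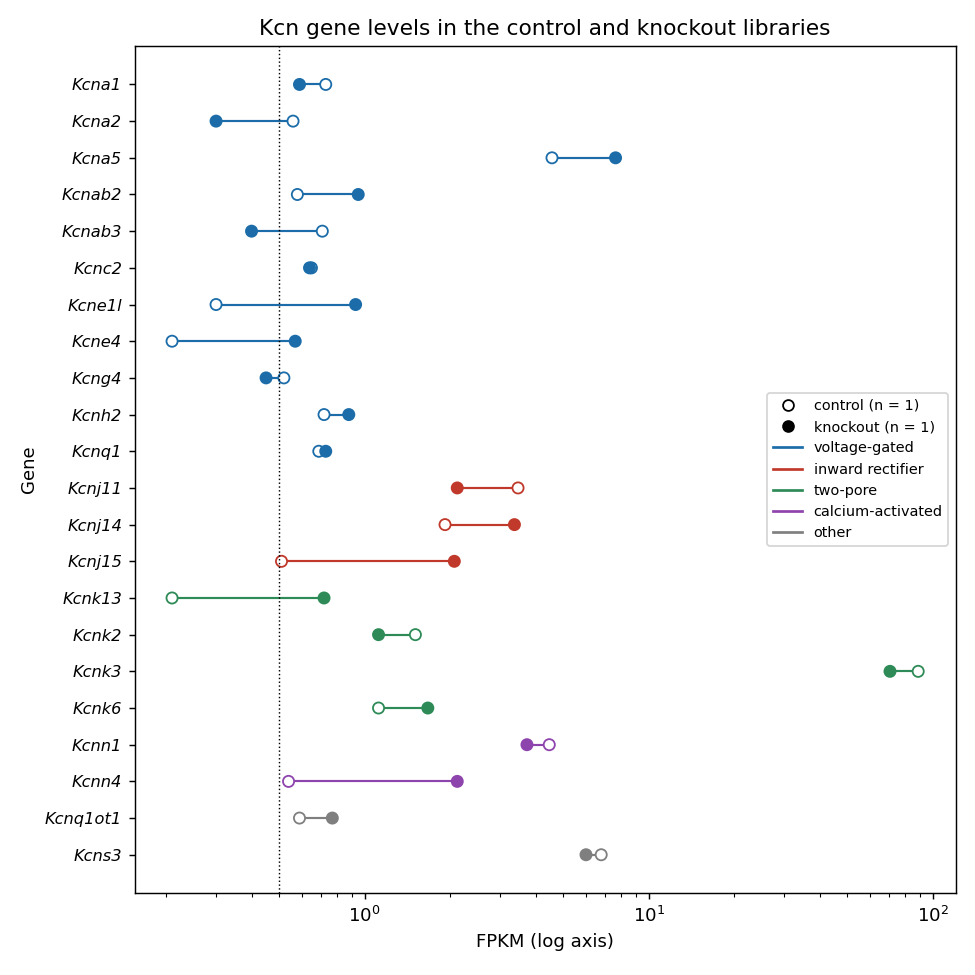
Level of 22 Kcn genes at 0.5 FPKM or more in either library; FPKM on a log axis, 1 row per gene, open points for the control library and filled points for the knockout library, coloured by class, with a dotted line at 0.5 FPKM. Kcnk3 lies far to the right of all others at 89.0 and 70.8 FPKM, and the longest lines among the rest belong to Kcnj15, Kcnn4 and Kcnk13.

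The knockout to control ratio of Kcnk3 was 0.796, with a counting interval of 0.756 to 0.838 on 3241 and 2684 counts. The interval excludes 1, and the difference is under 1.5-fold. Ucp1, for comparison, had a ratio of 0.857 (0.848 to 0.865). Exons of Kcnk3 overlap, by up to 229 bases on the opposite strand, those of Gm9899, which was at 18.0 FPKM and 13.8 FPKM, and the protocol in the labels does not mention strand. Without Kcnk3 the other 60 members summed to 41.2 FPKM in control and 48.13 FPKM in knockout tissue, a ratio of 1.17. The sum over all members was thus lower in the knockout library and the sum over the rest higher.

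Counting intervals throughout are exact 95% intervals of the ratio of 2 read counts. They compare these libraries, not the genotypes, and since PCR copies are not independent molecules they cover counting error only. A gene was called higher or lower when its FPKM ratio was at least 1.5-fold from 1 and the interval excluded 1. By this rule 7 of the 24 members were called, 5 higher and 2 lower in the knockout library, beside 12.7% of the 12869 genes at 0.5 FPKM or more, with 6.89% higher and 5.8% lower. Scaling both libraries to the same FPKM total turned the 887 higher and 747 lower genes into 1106 and 549, and gave 7 higher and 2 lower members. Past 2-fold by the same rule, 3 members were higher, beside 3.12% of all tested genes, and none was lower. The members called higher were Kcnj15, Kcnn4, Kcnk13, Kcnj14 and Kcna5, and those called lower were Kcna2 and Kcnj11. Low counts scatter more: 18 of the 24 members had under 200 counts in both libraries together and 6 of these were called, beside 23.9% of all tested genes with so few counts. Of the 6 members with more counts 1 was called, Kcna5, beside 7.28% of all such genes.

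The threshold itself favours differences, since 6 members reached 0.5 FPKM in 1 library alone: Kcna2, Kcnab3 and Kcng4 in the control, and Kcne1l, Kcne4 and Kcnk13 in the knockout library. Of the 7 called genes, 5 passed in both libraries and 2, Kcna2 and Kcnk13, in 1. The members nearest the threshold on the inside were Kcng4, Kcna2 and Kcne4, whose higher values were 0.52, 0.56 and 0.57 FPKM, and on the outside Kcnmb4, Kcna6 and Kcnk4 with 0.42, 0.34 and 0.30 FPKM. The median log2 ratio of the 24 genes was 0.19, with 13 ratios above 1 and 11 below, beside a median of -0.03 over all tested genes, of which 46.6% had a ratio above 1. The members ranged from -0.90 for Kcna2 to 2.02 for Kcnj15. Across the 24 genes, which share their libraries and are not replicates, Spearman's rho between the FPKM values of the libraries was 0.68.

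**Figure D2:**
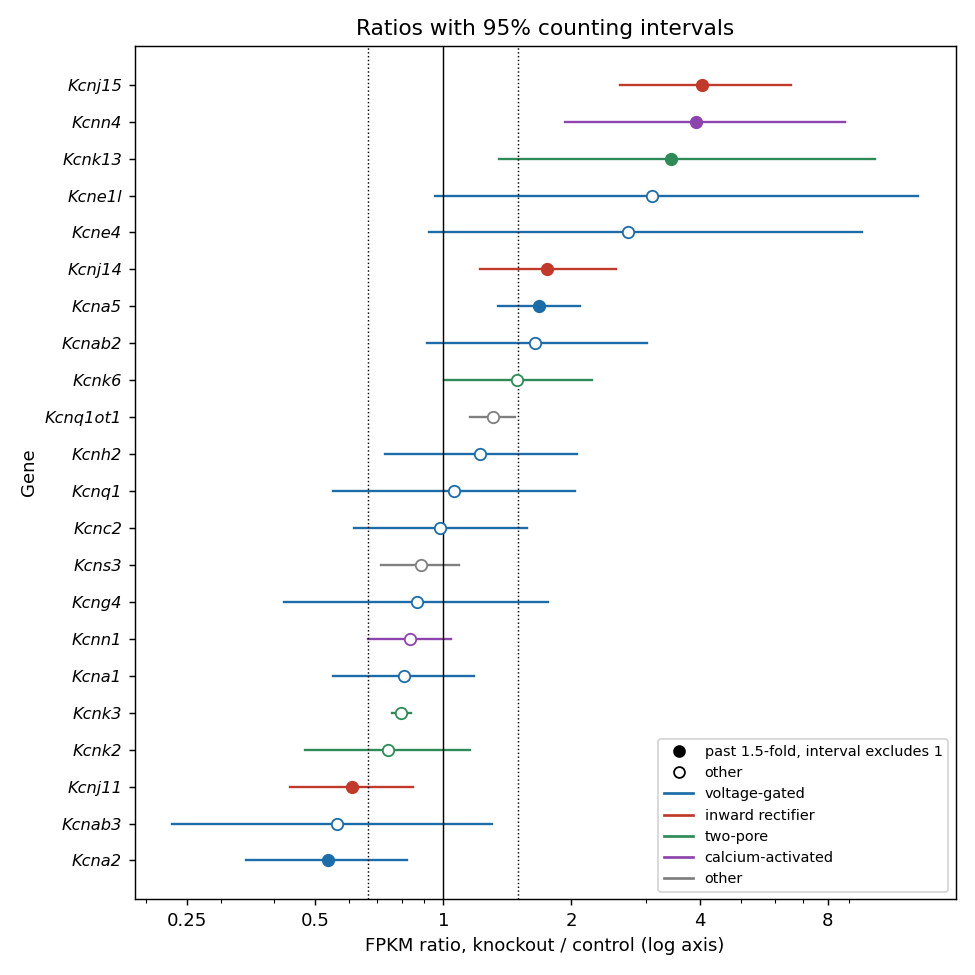
Knockout to control FPKM ratio of 22 Kcn genes on a log axis, in order of the ratio, with 95% counting intervals; filled points are past 1.5-fold with an interval that excludes 1, and dotted lines mark 1.5-fold. The ratios run from 0.536 for Kcna2 to 4.06 for Kcnj15, and the interval of Kcnk3 is the narrowest.

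Among the voltage-gated genes, 13 of the 31 listed reached 0.5 FPKM, 9 of them with the pore signature and 4 accessory. Classes were set by symbol, and Kcns3 and the noncoding Kcnq1ot1 were kept outside them, so neither is among these 13. Kcna5, a delayed rectifier of heart and vascular smooth muscle that immune cells also use, was at 4.57 FPKM in control and 7.65 FPKM in knockout tissue. Its ratio of 1.67 (1.35 to 2.09) rested on 132 and 230 counts, and Kcna5 moved from the fourth most abundant member to the second.

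The silent subunits do not conduct alone and join other voltage-gated subunits to change their gating. Kcns3, the most abundant of them, was at 6.81 FPKM in control and 6.02 FPKM in knockout tissue, a ratio of 0.884 (0.716 to 1.09). Kcng4, another of this kind, was at 0.52 FPKM and 0.45 FPKM on 19 and 17 counts.

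The pore-forming voltage-gated genes described next lay under 1 FPKM in both libraries. Kcna2, a channel of axons, was called lower at 0.56 FPKM in control and 0.30 FPKM in knockout tissue, a ratio of 0.536 (0.344 to 0.822) on 63 and 35 counts. With a pseudocount of 1 FPKM its ratio was 0.833 and it was not called. Kcna1, its partner in axonal channels, was at 0.73 FPKM and 0.59 FPKM, and the interval of its ratio, 0.550 to 1.18, included 1. Kcnc2, a fast-spiking channel of neurons, was at 0.65 FPKM and 0.64 FPKM on 39 and 40 counts, with an interval of 0.617 to 1.57. Kcnh2, which repolarizes the heart, was at 0.72 FPKM and 0.88 FPKM, a ratio of 1.22 (0.731 to 2.06). Kcnq1, a cardiac and epithelial channel, was at 0.69 FPKM and 0.73 FPKM, and the interval of its ratio, 0.551 to 2.04, is too wide to exclude a 1.5-fold difference. Kcnq1ot1, the imprinted noncoding RNA read from the opposite strand inside Kcnq1, was at 0.59 FPKM and 0.77 FPKM. Its ratio was 1.31 (1.16 to 1.47), and exons of both genes overlap by 121 bases. Its counts were not whole, while those of Kcnq1 were, so part of its reads may belong to other genes.

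Accessory subunits bind voltage-gated channels and change their gating or transport. Of the 4 that reached 0.5 FPKM none was called, although all 4 were past 1.5-fold, because each rested on 17 to 54 counts over both libraries and had an interval that included 1. Of all tested genes 5.18% were likewise past 1.5-fold with such an interval. Kcnab2 was at 0.58 FPKM in control and 0.95 FPKM in knockout tissue, a ratio of 1.64 (0.916 to 3.0). Kcnab3 went the other way, at 0.71 FPKM and 0.40 FPKM, a ratio of 0.563 (0.231 to 1.3). Kcne1l, on the X chromosome, was at 0.30 FPKM and 0.93 FPKM on 4 and 13 counts, a ratio of 3.10 (0.958 to 13.1), and Kcne4 at 0.21 FPKM and 0.57 FPKM on 5 and 14 counts, a ratio of 2.71 (0.924 to 9.63).

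All 3 inward rectifier genes at 0.5 FPKM or more were called, in opposite directions. Each had under 200 counts over both libraries, where 23.9% of all tested genes were called. Kcnj11, the pore of channels that close when ATP is high, was at 3.47 FPKM in control and 2.12 FPKM in knockout tissue. Its ratio was 0.611 (0.437 to 0.849) on 102 and 60 counts. The transcript length assigned to Kcnj11, a mean weighted over its transcripts, was 3085 bases in the control and 2854 bases in the knockout library, so the estimated mix of its transcripts differed as well. Scaled by counts alone, the ratio was 0.565. The sulfonylurea receptor genes, whose products surround this pore, did not go with it: Abcc9 was at 5.21 FPKM and 6.17 FPKM, a ratio of 1.18 (1.03 to 1.36), and Abcc8 at 0.32 FPKM and 0.38 FPKM on 15 and 19 counts. Part of the Abcc9 reads were shared with other genes.

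Kcnj14, a classical strong inward rectifier, was at 1.92 FPKM in control and 3.37 FPKM in knockout tissue, a ratio of 1.76 (1.22 to 2.55) on 48 and 88 counts. Kcnj15, a rectifier of kidney and other epithelia, was at 0.51 FPKM and 2.07 FPKM. Its ratio of 4.06 (2.60 to 6.56) on 25 and 104 counts was the highest of the 24, and 2.03 with a pseudocount of 1 FPKM. Kcnj15 ranked 21st among the members in the control and ninth in the knockout library.

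Of the two-pore genes 4 of 9 reached the threshold. Kcnk3 has been given above. Kcnk2, a leak channel opened by stretch and by lipids, was at 1.51 FPKM in control and 1.12 FPKM in knockout tissue, a ratio of 0.742 (0.472 to 1.16). Kcnk6, a weakly rectifying leak channel, was at 1.12 FPKM and 1.67 FPKM. Its ratio of 1.49 (1.01 to 2.23) fell just short of the rule. Kcnk13, a channel of microglia and other myeloid cells, was at 0.21 FPKM and 0.72 FPKM on 6 and 22 counts, a ratio of 3.43 (1.35 to 10.3). With a pseudocount of 1 FPKM it was 1.42 and not called. The class summed to 92.5 FPKM and 74.7 FPKM, nearly all of it Kcnk3.

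Among the calcium-activated genes 2 of 7 reached the threshold. Kcnn1, a small-conductance channel, was at 4.47 FPKM in control and 3.73 FPKM in knockout tissue, a ratio of 0.834 (0.666 to 1.04) on 173 and 150 counts. Kcnn4, the intermediate-conductance channel of lymphocytes, macrophages and red blood cells, was at 0.54 FPKM and 2.12 FPKM. Its ratio of 3.93 (1.93 to 8.79) rested on 10 and 41 counts, and was 2.03 with a pseudocount of 1 FPKM. The large-conductance channel gene Kcnma1 was at 0.07 FPKM and 0.12 FPKM, with 4 and 7 counts.

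The 2 genes with the highest ratios, Kcnj15 and Kcnn4, are shown by their promoters, since the targeted enzyme methylates cytosine where guanine follows. Methylation was not measured here. The 250 bases before the RefSeq start site are printed on the plus strand of GRCm38.p6, with each CG in capitals; the motif reads the same on both strands.
Kcnj15: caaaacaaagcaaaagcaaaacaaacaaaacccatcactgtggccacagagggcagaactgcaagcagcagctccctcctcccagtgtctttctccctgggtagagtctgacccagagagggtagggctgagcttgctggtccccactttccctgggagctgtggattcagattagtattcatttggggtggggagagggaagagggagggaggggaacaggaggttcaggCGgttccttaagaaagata
Kcnn4: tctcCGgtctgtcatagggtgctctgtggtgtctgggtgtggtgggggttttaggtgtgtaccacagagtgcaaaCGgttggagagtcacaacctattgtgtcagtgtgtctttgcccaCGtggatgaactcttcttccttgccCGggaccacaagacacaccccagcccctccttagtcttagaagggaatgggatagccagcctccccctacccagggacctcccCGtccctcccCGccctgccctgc
The Kcnj15 window, chr16:95257308-95257557, holds 1 CG and the Kcnn4 window, chr7:24370013-24370262, holds 6. The 12985 such windows of the 12869 tested genes are not 1 per gene, since some genes have more than 1 and some have none. Over these windows the median was 15, and 98.8% held at least 1. Windows with as few as that of Kcnj15 made up 4.04% and those with as few as that of Kcnn4 21.8%. A promoter was at hand for 15 of the 24 genes, under 80%, so a comparison of the whole set is void.

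The remaining 37 members stayed under 0.5 FPKM in both libraries. In the control library 26 of them were listed, at 0.02 to 0.42 FPKM, and in the knockout library 29, at 0.01 to 0.26 FPKM. The median was 3 counts in each. Of the 37, 18 were listed in both libraries, 8 only in control tissue and 11 only in knockout tissue. Over all 3305 listed genes under 0.5 FPKM in both libraries, 18.9% were listed only in control and 21.5% only in knockout tissue. For 3 of the 37 the interval of the ratio excluded 1, beside 5.42% of those 3305 genes. Kcna7, a channel of skeletal muscle and heart, had 9 counts in control and 1 in knockout tissue, and Kcnq5, which forms a slow current of neurons and smooth muscle, also had 9 and 1. Kcnab1, an accessory subunit, was not listed in control tissue and had 6 counts in knockout tissue.

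**Figure D3:**
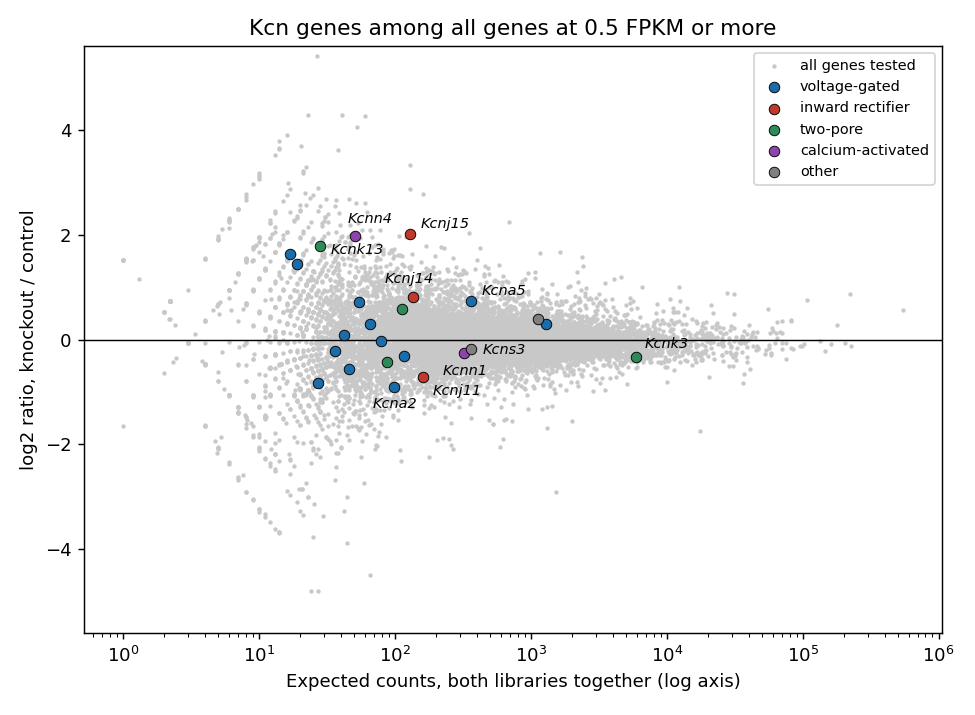
Log2 ratio of knockout to control against the expected counts of both libraries together (log axis) for the 12869 genes at 0.5 FPKM or more in either library, in grey, with the 24 Kcn genes coloured by class and some of them named. The grey cloud widens towards low counts, where most Kcn genes lie; Kcnj15 at 129 counts lies near its upper edge.

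Several of the called genes are known from cell types whose markers also differed between the libraries. Counts of called markers, here and below, are to be set against the 12.7% of all tested genes called. Of 9 macrophage markers, all were at 0.5 FPKM or more, 7 were called higher and none lower, and their summed level was 354 FPKM in control and 529 FPKM in knockout tissue. None of the 9 was at 0 in either library. Kcnn4, Kcnk13 and Kcna5 were higher beside them, and the part of these cells in those ratios was not tested. Of the 8 markers of T and B cells 2 reached 0.5 FPKM. The pan-leukocyte gene Ptprc was called higher at 1.57 FPKM and 3.79 FPKM. The T cell gene Cd3e was at 0.45 FPKM in control and was not listed in the knockout library. Red blood cell genes summed to 7563 FPKM and 7413 FPKM, with none of 4 called.

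Markers of brown adipocytes, cells known to express Kcnk3 strongly, were called higher in 1 and lower in 2 of 13. The median log2 ratio of these markers was -0.29, beside -0.33 for Kcnk3. Their sum was 19964 FPKM in control and 15890 FPKM in knockout tissue. General adipocyte genes had 0 of 8 called and sums of 25925 FPKM and 24218 FPKM. Of the 8 white adipocyte genes, Hoxc9 and Hoxc10 were listed in neither library. The 6 tested were all called higher, with sums of 334 FPKM and 716 FPKM. Fibroblast and progenitor genes had 2 of 8 called higher, with sums of 268 FPKM and 356 FPKM. Among smooth muscle and pericyte genes, cells in which Kcna5 is well known, 1 of 10 was called higher, with sums of 155 FPKM and 169 FPKM. Endothelial genes had 4 of 8 called lower, with sums of 173 FPKM and 133 FPKM. Nerve and Schwann cell genes, beside Kcna1 and Kcna2, had 1 of 7 called, which was higher, and sums of 220 FPKM and 223 FPKM. Of 3 skeletal muscle genes tested, 1 was called higher, Acta1, at 1.38 FPKM and 2.71 FPKM, while Mylpf, at 0.74 FPKM and 0.28 FPKM, and Tnni2, at 0.68 FPKM and 0.16 FPKM, rested on 5 or fewer counts a library. The 11 listed genes summed to 4.15 FPKM and 4.09 FPKM. Of these, Myh1, Myh4 and Tnnt3 were at or under 0.21 FPKM in control and were not listed in the knockout library. The part of any of these cells in the Kcn ratios was not tested.

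**Figure D4:**
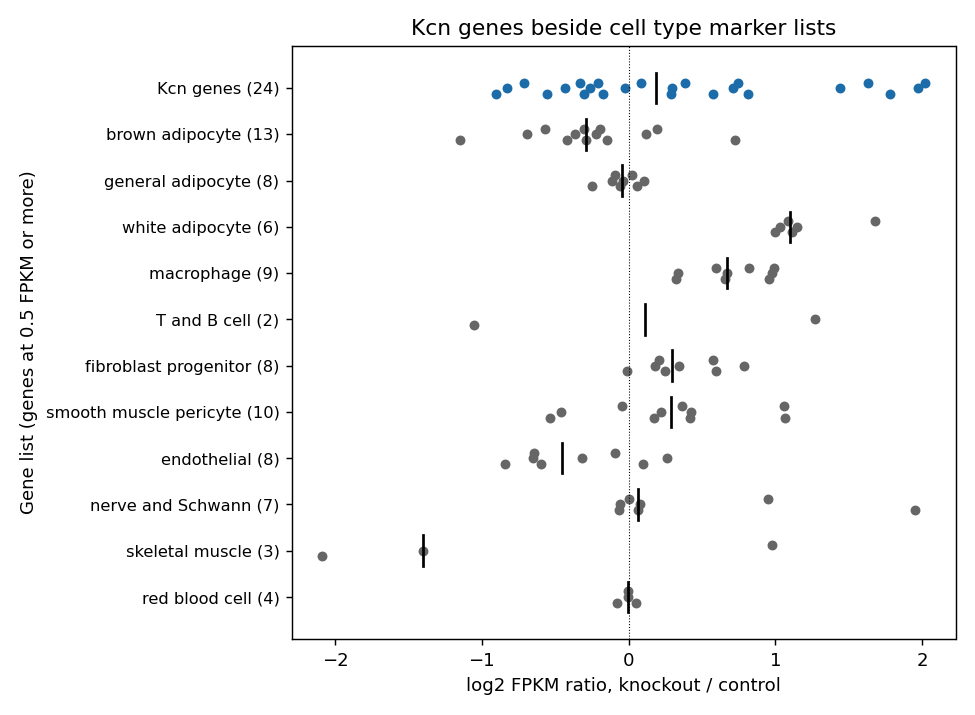
Log2 FPKM ratio of knockout to control for the 24 Kcn genes and for the genes of 11 cell type marker lists at 0.5 FPKM or more, with the number of genes in parentheses and a bar at each median. The Kcn genes spread on both sides of 0, while all 9 macrophage and all 6 white adipocyte genes lie above it.

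Other genes of membrane ion transport were read beside the channels. Their counts of called genes are to be set against the 12.7% of all tested genes called, a share at which 1 call is near the background in lists as short as these. The sodium pump builds the potassium gradient, and its list also holds the calcium pump genes Atp2b1 and Atp2b4, neither of them called. Of the 13 genes tested in this list, 2 were called higher and 1 lower. Among those called were the regulator Fxyd2 with a ratio of 1.87 and the beta subunit Atp1b2 with 0.577. Of the cation-chloride cotransporters 1 of 6 was called, Slc12a5, which extrudes potassium with chloride, at 1.14 FPKM and 0.50 FPKM. The one tested pacemaker channel gene, Hcn2, was called lower at 4.07 FPKM and 2.62 FPKM, a ratio of 0.644 (0.482 to 0.857).

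Of the channel partner list, which holds Abcc8 and Abcc9, 1 of 4 tested genes was called: the membrane protein gene Amigo1, lower at 8.69 FPKM and 5.47 FPKM, a ratio of 0.629 (0.539 to 0.735). Calcium channel genes had 1 of 7 called, the auxiliary subunit Cacna2d3, lower with a ratio of 0.427, and sodium channel genes 1 of 3, Scn7a, higher with 1.74. Chloride and volume-regulated anion channel genes had 3 of 12 called, all higher. These were the volume-regulated channel subunits Lrrc8b, at 0.78 FPKM and 2.56 FPKM, and Lrrc8c, at 2.42 FPKM and 5.18 FPKM, and the endosomal exchanger Clcn5, at 0.14 FPKM and 0.66 FPKM. Their ratios were 3.28 (2.0 to 5.62), 2.14 (1.59 to 2.91) and 4.71 (1.79 to 15.7). Clcn5 reached 0.5 FPKM in the knockout library alone, on 5 counts in control and 27 in knockout tissue.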

How the data were processed

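The labels' protocols describe poly(A) selection, fragmentation, cDNA synthesis and PCR for both brown adipose tissue libraries. The authors deposited an expected count per gene, an estimate that need not be whole because ambiguous reads are split, per the file headers. Per the file headers they also deposited FPKM values, scaled to transcript length and library size. RSEM and mm9 are named in the submitters' processing notes, and no aligner is.

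Genes absent from a library's table count as 0. Entrez identifiers were turned into symbols with a RefSeq table, with 16134 of 16174 matched. With 1 library per group a rule of size replaced a test: an FPKM ratio of at least 1.5-fold with an exact conditional Clopper-Pearson 95% interval of the rounded expected counts that excluded 1, over genes at 0.5 FPKM or more in either library. A count of 0 was set to 3 counts in that library. The interval and the rule were tried on simulated counts with known folds. These varied by counting error alone, which is what the interval assumes. The trial therefore cannot show how either does under variation between animals or PCR copies. Of the 24 genes at the threshold 22 are named; 2 are not reported here and stay in the counts. Other genes are named where called or where a result turns on them; some called genes of the lists are left unnamed. The members, 11 marker lists and 7 ion transport lists were chosen with earlier results of these data known. Alternatives changed the fold, pseudocount, filter, unit and scaling. Python 3.11.15, scipy 1.17.1 and pandas 2.3.3 were used.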

Additional observations from a re-analysis of the deposited data

How the results depend on the processing

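Of 271 ratios of single members under 12 alternatives, 265 stayed inside the counting interval of the reported ratio and 0 of the called ones changed direction. Part of this was fixed in advance. A change of fold or filter, or leaving out genes with shared reads, reuses the reported ratio, and a pseudocount cannot reverse a direction. Counts of called genes moved more. With a 2-fold rule 3 members were higher and 0 lower, and over all genes 402 were higher and 290 lower, against 887 and 747. With a pseudocount of 1 FPKM, 3 members were higher and 0 lower, and 538 and 439 of all genes. The count of lower members was 1 with at least 1 FPKM in either library, 1 with a mean of at least 0.5 FPKM and 4 with no filter. Kcnj15 and Kcnn4 kept their call under all 12 alternatives, but a pseudocount of 1 lowered both ratios to 2.03. It also lowered that of Kcnk13 to 1.42, and ended the calls of Kcnk13, Kcnj14 (1.497), Kcna2 (0.833) and Kcnj11 (0.698). The 2-fold rule ended those of Kcna5, Kcnj14, Kcna2 and Kcnj11. Kcnk13 and Kcna2 were below both stricter filters. With equal FPKM totals, with or without the 20 most abundant genes, Kcne1l and Kcnk6 were called too, and the Kcnk3 ratio was 0.846 to 0.847. With the trend in length and expression removed, Kcnq1ot1, the longest transcript of the tables, was called higher at 1.81. Depth limits most members: at 3 counts a transcript of 1 kilobase would stand at about 0.310 FPKM in control and 0.298 FPKM in knockout tissue. No paired analysis was possible because each group has 1 library.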
